A study of Homo sapiens with 24 samples.

Results

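In the HH cell line, 71 of the 25559 genes measured were silent in both untreated libraries while each of the other T-cell lines expressed them. The 3 lines stand for different T-cell cancers: cutaneous T-cell lymphoma (HH), T-cell acute lymphoblastic leukemia (PF382) and adult T-cell leukemia (TLOm1). A gene was a member when its level was under 0.2 CPM (its count scaled to a library total of 1000000) in both untreated HH libraries and at least 5 CPM in all 4 untreated PF382 and TLOm1 libraries. The members were therefore chosen by the untreated values, and levels of the members in untreated cells are a description with no test. Of the same 25559 genes, 10828 were under 0.2 CPM in both untreated HH libraries, and the members are 71 of these.

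The 24 RNA-seq libraries came from established lines kept in logarithmic growth. Cells were left untreated or received drug every 24 hours for 96 hours in all. HH was given azacitidine (AZA) at 50, 125 and 250 nM, and PF382 and TLOm1 at 125, 250 and 500 nM; decitabine was given to all 3 lines at 5, 12.5 and 25 nM. Each line had 2 untreated libraries, 1 alongside each drug, and every dose had 1 library. The AZA libraries with their untreated ones are called the AZA set here, and likewise for decitabine. No label says that libraries came from separate cultures, so every p-value below measures only the spread between these libraries.

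AZA and decitabine are cytidine analogs that are built into nucleic acid and trap DNA methyltransferases. Cells that go on dividing then lose DNA methylation, and genes held silent by promoter methylation can be transcribed again. A gene can also be silent because the factors that drive it are missing or because it is deleted, and RNA counts alone do not separate these cases. In bulk RNA, fewer expressing cells and less RNA per cell cannot be told apart.

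Library totals ran from 13892514 to 32496676 counts, and 3 counts in an HH library stood for 0.0923 to 0.185 CPM. The 2 untreated libraries of each line differed beyond sampling noise (chi-square per degree of freedom 25.1 to 36.2), so none was counted as a copy of another. In untreated HH, 7 of 9 T-cell markers were at 5 CPM or more, and CD7 was under 0.2 CPM. Their count was 9 of 9 in PF382 and 4 of 9 in TLOm1. In all HH libraries, the summed marker level stayed under 5 CPM for each of the B-cell, myeloid, epithelial, fibroblast, endothelial and erythroid lists, against 1340 to 1667 CPM for the T-cell list.

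The HH library at 50 nM AZA stood apart from the other HH libraries. Among 77 genes expressed in untreated TLOm1 and silent in untreated HH and PF382, 75 had a count in this library, and their median level was 1.88% of the untreated TLOm1 level. The same median was 0.175% in the untreated HH library of that set, 0.306% at 125 nM and 0.338% at 250 nM, and it was 0 to 0.0836% in the decitabine set. For 243 genes expressed only in PF382 the median was 0 in every HH library. The members showed the same picture: 59 of 71 were higher at 50 than at 125 nM AZA, and 50 had their highest treated HH level at 50 nM. For the 59 and the 50, no share over all HH-silent genes was computed. The members' level at 50 nM followed the untreated TLOm1 level (Spearman correlation 0.678 across the 71 genes) far more closely than the PF382 level (correlation 0.052). A weaker correlation with TLOm1 was also present in the untreated library of the AZA set (0.390), at 125 nM (0.338) and at 250 nM (0.139). In the decitabine set it was -0.013 to 0.097. The members share their libraries and depth and are not independent replicates. What put counts of TLOm1-only genes in the 50 nM library was not tested. The counts of members and the tests that rest on this library are given with and without it.

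In the treated cells, 12 of the 71 members reached 1 CPM in at least 1 of the 6 treated HH libraries, and 7 did so without the 50 nM AZA library. The homeodomain transcription factor ONECUT2 went highest, to 8.35 CPM at 250 nM AZA and 4.18 CPM at 25 nM decitabine. The next were the glycine transporter SLC6A9, the deubiquitinase YOD1 and PICK1, a scaffold protein with a PDZ domain. They were followed by WDR35, a protein of intraflagellar transport in cilia, DENND2D, a DENN-domain exchange factor for Rab GTPases, and ASS1, argininosuccinate synthase of arginine synthesis. The other 64 members stayed under 1 CPM in these 5 libraries.

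The upstream sequences of 4 members show the 2 outcomes side by side. ONECUT2 and YOD1 reached 1 CPM with both drugs, and AK4 and ZNF423 are expressed in the other lines but stayed under 0.2 CPM in every treated HH library. DENND2D also reached 1 CPM with both drugs and is not shown, so the 4 are examples and do not stand for the group. Each line gives the 250 bases before the RefSeq start on GRCh38.p14, 5′ to 3′, with every CG, the site of DNA methylation, in capitals. ONECUT2 is at chr18:57435124-57435373 on the plus strand, YOD1 at chr1:207051209-207051458 on the minus strand, AK4 at chr1:65147302-65147551 on the plus strand and ZNF423 at chr16:49664325-49664574 on the minus strand. AK4 has 4 starts listed and ZNF423 has 2, of which the one listed first is shown.
ONECUT2: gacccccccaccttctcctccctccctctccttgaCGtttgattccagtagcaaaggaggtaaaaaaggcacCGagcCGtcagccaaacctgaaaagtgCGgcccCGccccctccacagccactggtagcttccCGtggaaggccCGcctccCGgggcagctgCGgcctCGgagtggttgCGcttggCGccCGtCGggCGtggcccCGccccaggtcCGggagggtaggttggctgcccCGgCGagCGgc
YOD1: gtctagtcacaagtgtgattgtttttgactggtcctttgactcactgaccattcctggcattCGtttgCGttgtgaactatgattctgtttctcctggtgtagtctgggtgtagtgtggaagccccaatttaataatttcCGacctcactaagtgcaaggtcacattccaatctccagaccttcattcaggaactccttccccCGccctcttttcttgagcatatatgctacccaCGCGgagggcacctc
AK4: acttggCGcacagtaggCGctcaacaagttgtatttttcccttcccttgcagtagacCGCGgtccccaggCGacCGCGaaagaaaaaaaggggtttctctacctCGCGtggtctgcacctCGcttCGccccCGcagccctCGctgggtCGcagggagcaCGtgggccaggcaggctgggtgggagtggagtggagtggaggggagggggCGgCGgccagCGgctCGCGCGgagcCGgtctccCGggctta
ZNF423: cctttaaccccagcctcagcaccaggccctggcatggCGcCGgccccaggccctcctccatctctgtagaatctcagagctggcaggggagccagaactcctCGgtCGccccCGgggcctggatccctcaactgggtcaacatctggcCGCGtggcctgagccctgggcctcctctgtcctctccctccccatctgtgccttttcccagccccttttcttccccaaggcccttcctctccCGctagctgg
The letters CG, which read the same on both strands, occurred 20 times upstream of ONECUT2 and 6 times upstream of YOD1. AK4 had 23 and ZNF423 had 8. Over 27305 RefSeq promoters of 250 bases, 93.6% held at least 1 CG and the median was 11, so each pair holds 1 promoter above that median and 1 below it. The share of these promoters with at least as many was 32.1% for ONECUT2, 61.3% for YOD1, 25.4% for AK4 and 55.8% for ZNF423. A comparison over the whole group was void, since 56 of 71 members (78.9%, under the 80% needed) matched a promoter in the table. Methylation itself is not analysed here, and a CG is not evidence that it was methylated.

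Counted by library, 6 members (8.45%) were at 1 CPM or more at 50 nM AZA, 3 (4.23%) at 125 nM and 7 (9.86%) at 250 nM. No member was at 1 CPM at 5 or 12.5 nM decitabine, and 3 (4.23%) were at 25 nM. Over all 10828 genes silent in untreated HH the shares in the same order were 0.259%, 0.462% and 1.21% with AZA, and 0%, 0.203% and 0.933% with decitabine. HH-silent genes that only 1 of the other lines expressed (516 genes) lay between, at 3.49%, 1.74% and 5.04% with AZA and 0%, 0.775% and 3.29% with decitabine. The remaining 10241 HH-silent genes reached 0.957% at 250 nM AZA and 0.791% at 25 nM decitabine. The members' share was therefore above the background in all 3 AZA libraries and at 25 nM decitabine, where it rests on 3 genes. At 50 nM AZA this was not particular to the members: 10 of the 77 TLOm1-only genes were at 1 CPM or more there. Of these 77 genes, 1 was at 125 nM AZA, 5 at 250 nM and 2 at 25 nM decitabine.

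**Figure D1:**
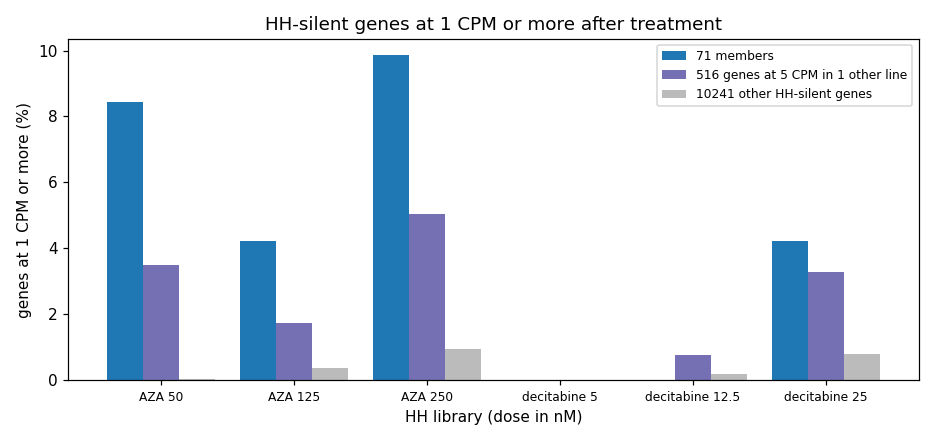
Bars give the percentage of genes silent in untreated HH that were at 1 CPM or more in each of the 6 treated HH libraries (doses in nM), for the 71 members, the 516 genes that 1 other line expressed and the 10241 remaining genes. The tallest bar is the members' 9.86% at 250 nM AZA, there is no bar at 5 nM decitabine, and the members have none at 12.5 nM.

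With the level of the TLOm1-only genes (their median share of the TLOm1 level) taken off each library, the counts became 2, 3 and 6 with AZA and 0, 0 and 3 with decitabine. The 2 that stayed at 50 nM AZA were ASS1 and ID1, an inhibitor of basic helix-loop-helix factors, which were at 6.13% and 17.4% of their untreated TLOm1 level there. Both are higher in TLOm1 after AZA: ASS1 was at 53.0, 89.2 and 183 CPM and ID1 at 21.4, 32.0 and 45.1 CPM at 125, 250 and 500 nM. Against these treated levels the HH values at 50 nM were 0.911% to 3.15% for ASS1 and 3.16% to 6.65% for ID1. The TLOm1-only genes and the other members were not set against treated levels. Where the counts of ASS1 and ID1 at 50 nM came from was not tested. ALDH3A2, the fatty aldehyde dehydrogenase, the carboxypeptidase CPVL, PPP4R1, a regulatory subunit of protein phosphatase 4, and TMEM155 reached 1.05 to 1.36 CPM at 50 nM AZA, which was 1.28% to 2.63% of the TLOm1 level. None of these 4 reached 1 CPM in any other HH library.

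**Figure D2:**
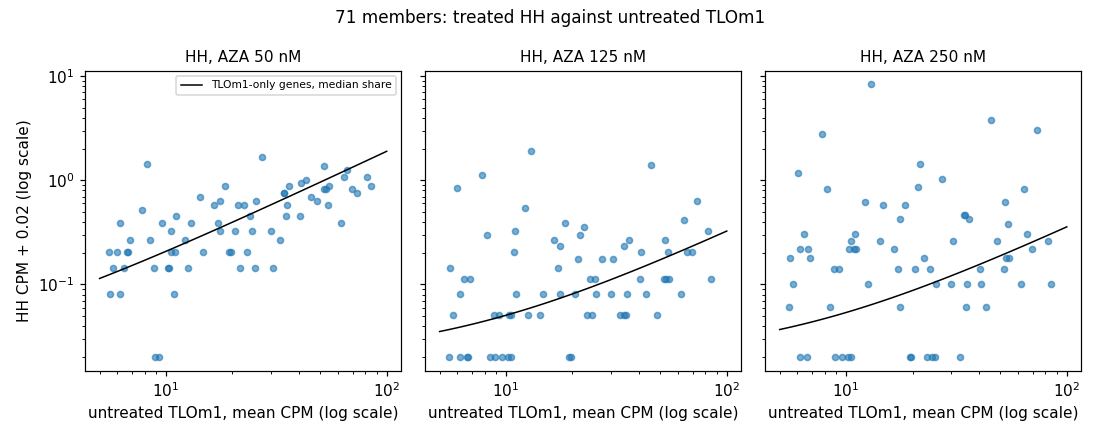
Each point is 1 of the 71 members, with its mean untreated TLOm1 level (CPM, log axis) on the horizontal axis and its level in HH after 50, 125 or 250 nM AZA (CPM + 0.02, log axis) on the vertical axis. The black line is the median share of the TLOm1 level held by the 77 TLOm1-only genes, 1.88%, 0.306% and 0.338%. At 50 nM the points lie along the line, and at 250 nM ONECUT2, at 8.35 CPM, lies far above it.

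ONECUT2 had 0.0823 CPM in the untreated HH library of the AZA set, then 0.371 CPM at 50 nM, 1.91 CPM at 125 nM and 8.35 CPM at 250 nM. In the decitabine set it went from 0 counts untreated to 0.0521, 0.391 and 4.18 CPM at 5, 12.5 and 25 nM. Both series rose at each step, and most of the rise came at the highest dose. The 250 nM level rested on 207 counts against 2 in the untreated library, a ratio of 101 (95% exact interval 27.7 to 843), and the 25 nM level on 84 counts against 0, at least 28.0-fold higher when 3 counts in the untreated library are taken as the floor. These intervals cover counting error only. ONECUT2 was the only member to pass 50% of its level in the other lines, with 66.4% of their untreated mean of 12.6 CPM at 250 nM AZA, and 33.2% at 25 nM decitabine. Untreated levels were 12.2 ± 1.92 CPM in PF382 and 13.0 ± 1.32 CPM in TLOm1 (SD, n = 2 each), and treated libraries of these lines ran from 7.29 to 16.3 CPM. The ranges overlap only at 250 nM AZA.

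SLC6A9 was at 0.165 CPM untreated and at 0.680, 1.38 and 3.75 CPM with rising AZA dose. With decitabine it was at 0.149 CPM untreated and at 0, 0.223 and 0.547 CPM. It passed 1 CPM only with AZA, where 93 counts at 250 nM stood against 4 (ratio 22.8, 8.61 to 85.4), and it reached 13.5% of the mean level of the other lines. PF382 held 10.3 ± 4.54 CPM and TLOm1 45.3 ± 4.37 CPM (SD, n = 2 each).

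YOD1 was at 0.0823 CPM untreated, 0.742 CPM at 50 nM, 0.615 CPM at 125 nM and 3.06 CPM at 250 nM AZA. Its decitabine series was 0.0497, 0, 0.0559 and 1.29 CPM. In both series the highest dose stood clear of the others, with 76 counts against 2 for AZA (ratio 37.3, 9.96 to 313) and 26 against 1 for decitabine (ratio 26.0, 4.27 to 1070). The gene holds 53.2 ± 15.2 CPM in untreated PF382 and 73.6 ± 14.2 CPM in untreated TLOm1 (SD, n = 2 each), so 250 nM AZA brought it to 4.84% of the other lines' mean. YOD1 overlaps another member, PFKFB2, which makes a regulator of glycolysis, and whether strand was used in counting is not given in the sources used here, so reads shared by the pair cannot be told apart. PFKFB2 itself was at 0 to 0.282 CPM in the HH libraries.

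PICK1 was at 0.123 CPM untreated and at 0.495, 1.11 and 2.78 CPM with AZA. With decitabine it went from 0.0994 CPM to 0.417, 0.614 and 0.497 CPM, with no step beyond counting error between the 3 doses. At 250 nM AZA it stood at 24.6% of the other lines' mean, 69 counts against 3 (ratio 22.5, 7.40 to 112). Levels in untreated PF382 and TLOm1 were 14.8 ± 1.53 and 7.81 ± 0.0745 CPM (SD, n = 2 each).

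WDR35 had 0.0411 CPM untreated and 0.124, 0.277 and 1.41 CPM with AZA, and 0, 0, 0.223 and 0.447 CPM along the decitabine series. DENND2D had 0.0411 CPM untreated and 0.185, 0.831 and 1.17 CPM with AZA. Its decitabine series was 0.0497, 0.469, 0.559 and 1.14 CPM. At the top doses DENND2D was at 8.38% (AZA) and 8.19% (decitabine) of the other lines' mean. The drugs were given at different doses and in different library sets, so these values stand side by side and are not a comparison of the compounds.

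ASS1 did not follow dose: it was at 0.165 CPM untreated, 1.67 CPM at 50 nM, 0.154 CPM at 125 nM and 1.01 CPM at 250 nM AZA, and it had 0 counts in all 4 decitabine-set HH libraries. ID1 was at 0.165 CPM untreated and at 1.42, 0.277 and 0.806 CPM with AZA, and at 0.208 CPM or less in the decitabine set. In both genes the 50 nM library was the highest.

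**Figure D3:**
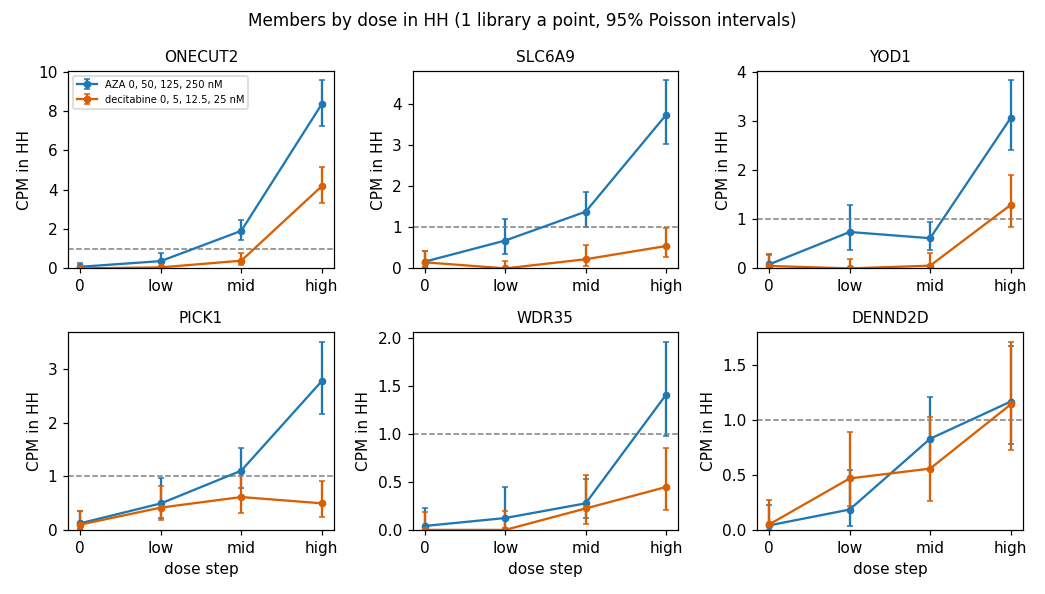
Level in HH (CPM, linear axis from 0, scale differing between panels) of ONECUT2, SLC6A9, YOD1, PICK1, WDR35 and DENND2D, by dose step, in blue for AZA (0, 50, 125 and 250 nM) and orange for decitabine (0, 5, 12.5 and 25 nM). Points are single libraries with 95% exact Poisson intervals, and the dashed line is 1 CPM; all 6 genes are above it at 250 nM AZA, and ONECUT2, YOD1 and DENND2D also at 25 nM decitabine.

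The 3 members at 1 CPM or more with decitabine, ONECUT2, YOD1 and DENND2D, were all among the 7 found with 125 or 250 nM AZA. The shared genes are 100% of the decitabine list and 42.9% of the AZA list, or 25.0% of the AZA list when 50 nM is included. Across the 71 members, levels at 250 nM AZA and 25 nM decitabine had a Spearman correlation of 0.645, a description of 2 libraries that hold many of these genes at a few counts.

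Most members stayed close to silent. Of the 71, 14 were under 0.2 CPM in all 6 treated HH libraries (33 leaving out 50 nM AZA), 45 lay between 0.2 and 1 CPM at their highest (31 without that library), and 12 reached 1 CPM (7 without it). No member lacked counts in all 8 HH libraries, although 14 had none in the 2 untreated ones. The fewest belonged to GRAMD3, with 1 count over all 8. The median member stood at 0.371, 0.0923 and 0.161 CPM along the AZA doses and at 0, 0.0559 and 0.0497 CPM along the decitabine doses, against 0.0411 and 0 CPM in the untreated libraries. Medians this low are 0 to 6 counts.

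**Figure D4:**
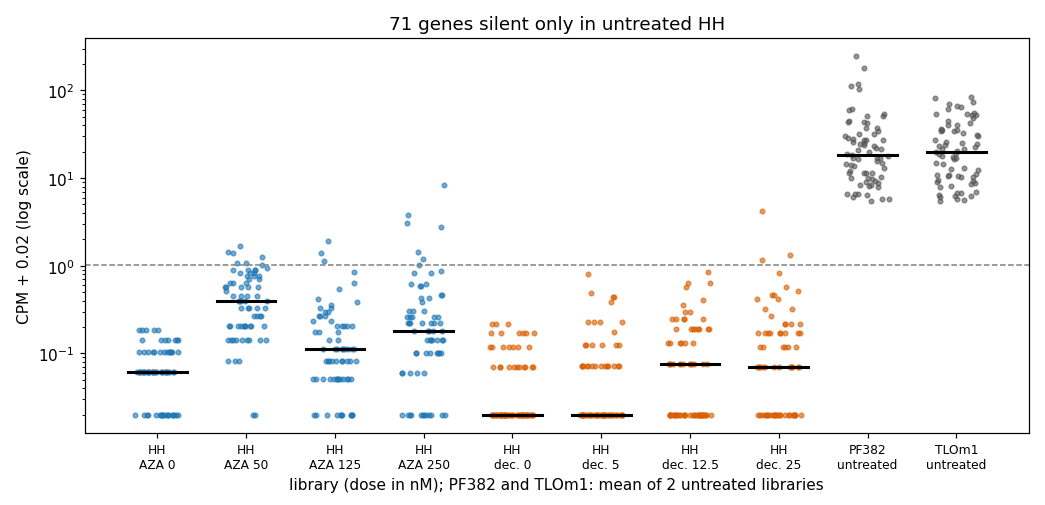
Each point is 1 of the 71 members, as CPM + 0.02 on a log axis, in the 8 HH libraries (blue for the AZA set, orange for the decitabine set, dose in nM) and as the mean of 2 untreated libraries of PF382 and TLOm1 (grey). Black bars are medians and the dashed line marks 1 CPM; the HH medians lie between 0 and 0.371 CPM, and in PF382 and TLOm1 every point is above 5 CPM.

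The members named next were the highest in the other lines among those that stayed under 0.2 CPM in HH. AK4, a mitochondrial adenylate kinase, was at 0.0823 CPM in 1 untreated HH library and at 0.185, 0.0308 and 0 CPM with AZA, and had 0 counts in the 4 libraries of the decitabine set. In untreated PF382 it was at 36.9 ± 27.4 CPM and in TLOm1 at 23.3 ± 3.06 CPM (SD, n = 2 each). Its PF382 level varied widely, with 1.87 to 18.4 CPM over the treated libraries. ZNF423, a zinc finger transcription factor, was at 42.5 ± 4.04 CPM in PF382, 9.25 ± 1.64 CPM in TLOm1 (SD, n = 2 each) and 0 to 0.168 CPM in the HH libraries.

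FAM84B was at 59.5 ± 1.40 CPM in untreated PF382 and 25.4 ± 3.31 CPM in TLOm1, and at most at 0.124 CPM in HH. EMILIN2, an extracellular matrix glycoprotein, and OCRL, an inositol polyphosphate phosphatase, had counts in HH only at 50 nM AZA (0.185 and 0.124 CPM). CLEC2B, a C-type lectin, was at 0.185 CPM there and at most 0.0411 CPM elsewhere in HH. GSPT2, a translation release factor close in sequence to GSPT1, and RRN3P1, a pseudogene of RRN3, may share reads with their relatives, which the counts do not show, so their values are uncertain. They were at most at 0.185 and 0.199 CPM in HH.

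Dose was tested within the treated libraries, which the rule did not use. A model over the 18 treated libraries gave each line a level and a slope on log2 dose in each drug set, and the HH slopes were tested with edgeR's quasi-likelihood test, adjusted by the Benjamini-Hochberg method over 16696 genes. All 71 members passed the filter on low counts, through their levels in PF382 and TLOm1. Counts of members called in this fit, beside the shares of all genes, are therefore a description. The spread was estimated over all lines, since HH had 3 treated libraries per drug.

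With AZA, 6 members rose and 19 fell with dose (all genes 7.73% and 6.29%). Most members had too few counts in HH alone to pass the filter. The 6 were ONECUT2 (log2 slope per doubling of dose 2.02, SE 0.18, adjusted p = 4.02e-09), WDR35 (1.90), YOD1 (1.25), SLC6A9 (1.17), PICK1 (1.14) and DENND2D (0.90), with adjusted p from 0.000101 to 0.0283 for the last 5. The 19 that fell were all highest at 50 nM, where they stood at 0.75% to 3.88% of their TLOm1 level (median 1.58%). Among them were ALDH3A2, SFMBT2, a polycomb group protein, and ARHGEF11, a guanine nucleotide exchange factor. SFMBT2 was at 0.989, 0.0615 and 0.0403 CPM at 50, 125 and 250 nM.

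Without the 50 nM library no member fell and 7 rose (all genes 0.603% and 0.762%). The HH slope then joins only the 125 and 250 nM libraries, so its spread comes wholly from the other lines and drug set. The same limit holds for every slope below with 1 HH library of its drug left out. Of the 19, 8 changed sign, and 5 had 0 counts at both 125 and 250 nM and so no slope. ONECUT2, WDR35, YOD1, SLC6A9 and PICK1 were called both with and without it, at slopes of 2.11, 2.32, 2.29, 1.42 and 1.31 without it (adjusted p 1.37e-05 to 0.0299). DENND2D was called only with the library (0.48 without it, adjusted p = 0.773). ASS1 (2.66, adjusted p = 0.0329) and ACCS (3.08, adjusted p = 0.0441) were called only without it. ACCS was at 0.0615 CPM at 125 nM and 0.564 CPM at 250 nM.

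Most AZA rises rest on the 250 nM library. Without it 1 member rose, ONECUT2 (1.78, adjusted p = 0.0153), and PICK1 (adjusted p = 0.375), SLC6A9 (0.474), WDR35 (0.790), YOD1 (0.955) and DENND2D (0.204) lost their calls. In a fit of the HH libraries alone, 7 members passed the filter on low counts. There ONECUT2, SLC6A9, PICK1, YOD1 and DENND2D rose with AZA dose and none fell (all genes 10.4% and 11.1%). The 19 that fell and WDR35 were therefore called only where PF382 and TLOm1 let them through the filter.

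With decitabine, 2 members rose and none fell (all genes 4.02% and 1.27%), by edgeR's adjusted p. They were ONECUT2 (slope 3.10, SE 0.30, adjusted p = 7.25e-08) and YOD1 (4.18, SE 0.70, adjusted p = 0.000457). At an unadjusted p under 0.05 there were 11 of 71 members, against 16.9% of all genes, and DESeq2 called 2 that rose and 0 that fell (all genes 2.45% and 1%). SLC6A9 (1.82, adjusted p = 0.0599) and WDR35 (1.64, adjusted p = 0.0884) did not pass, nor did PICK1 (0.10) or DENND2D (0.58). In this edgeR fit the share of members that rose with decitabine was below that of all genes. That did not hold in every fit. With DESeq2, 2 of 71 members rose against 2.45% of all genes. Without the filter on low counts, 4 of 71 rose against 853 of 22497 genes. In HH libraries alone, 7 members passed the filter and 3 rose, against 838 of 13581 genes. Both edgeR calls rest on the 25 nM library: without it no member was called. YOD1 was also not called without the 5 nM library.

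The treated cells kept the line difference. In the AZA set 70 of 71 members were lower in treated HH than in treated PF382 and TLOm1 (all genes 34.2%), and in the decitabine set 71 of 71 were (all genes 34%), by edgeR's quasi-likelihood test at an adjusted p of 0.05, where a line's doses served as its spread. The members passed the filter because the other lines express them, so these counts are a description. The exception after AZA was ONECUT2, at -1.60 log2 (SE 0.70, adjusted p = 0.0532), and it passed with DESeq2's size factors in edgeR (-1.63), against PF382 alone (-1.85) and without the 250 nM library (-3.11). Without the 50 nM library it was at -1.12 (adjusted p = 0.159). After decitabine it was at -2.55 log2 (SE 0.79, adjusted p = 0.00983).

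In PF382 and TLOm1 themselves the drugs left the members expressed. None fell under 1 CPM in any treated library, and the lowest value was 1.87 CPM, AK4 in PF382 at 500 nM AZA. The median log2 ratio of the members to the untreated library of the same set ran from -0.12 to 0.28 over the 12 treated libraries (pseudocount 0.5 CPM), and over 9060 expressed genes from -0.05 to 0.04. The members' untreated mean over both lines ran from 5.91 to 152 CPM with a median of 21.5 CPM. Of the 71, 32 were higher in PF382 and 39 in TLOm1, and CPM is not scaled to gene length, so levels are not compared between genes.

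The same rule turned to the other lines gave 152 genes silent only in PF382 and 45 silent only in TLOm1. At the top doses, 12 of the 152 (7.89%) reached 1 CPM in PF382 at 500 nM AZA and 24 (15.8%) at 25 nM decitabine, against 2.01% and 3.72% of all genes silent in untreated PF382. In TLOm1, 4 of the 45 (8.89%) did so at 500 nM AZA and 2 (4.44%) at 25 nM decitabine, against 2.89% and 1.27% of all genes silent in that line. Among the doses given to all 3 lines, HH had 3 of 71 (4.23%) at 25 nM decitabine, against 0.933% of all genes silent in untreated HH. At 250 nM AZA, HH had 7 of 71 (9.86%), PF382 4 of 152 (2.63%) and TLOm1 2 of 45 (4.44%). Over all genes silent in each untreated line the shares at 250 nM AZA were 1.21%, 0.832% and 1.39%. The order of the lines was not the same with the 2 drugs, and it rests on few genes. These differences between lines were not tested.

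Lists of T-cell and silencing biology held 190 measured genes, of which 2 (1.05%) were members, against 0.278% of all genes. TCF12, a basic helix-loop-helix partner of E2A in thymocytes, was the 1 member among 28 T-lineage transcription factors, and DAPK1, a calmodulin-regulated kinase that promotes cell death, the 1 among 36 tumor suppressors known to be methylated in cancer. TCF12 was at 249 ± 0.228 CPM in untreated PF382 and 54.9 ± 1.49 CPM in TLOm1 (SD, n = 2 each). In HH it was at 0.0823 and 0.0497 CPM untreated, at 0.866, 0.0923 and 0.161 CPM with AZA and at 0, 0.0559 and 0 CPM with decitabine. Its only value above 0.2 CPM was in the 50 nM AZA library.

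DAPK1 was at 119 ± 2.10 CPM in PF382 and 69.4 ± 1.68 CPM in TLOm1. HH held 0.0823 and 0 CPM untreated, 0.804, 0.185 and 0.202 CPM with AZA, and 0.104, 0 and 0.0497 CPM with decitabine. Neither gene came near 1 CPM outside the 50 nM library. No member was among the 30 T-cell receptor and surface genes, 32 cytokine and chemokine receptors, 7 GIMAP GTPases, 13 MHC class II genes, 5 genes of the 9p21 deletion, 7 genes with common deletion alleles, 25 imprinted genes or 10 genes of the methylation machinery. Of the HH-silent genes in these lists, 3 reached 1 CPM at a top dose: CD7, CD8B and H19. PECAM1, an adhesion molecule of endothelium and leukocytes, was the 1 member among the marker genes of other cell types. It was at 0.123 and 0.149 CPM untreated and at 0.104 to 0.866 CPM over the treated HH libraries, with the highest value at 50 nM AZA.

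On the genome the members lay on 20 chromosomes, with 12 (16.9%) on chromosome 1 against 10.5% of the 8850 genes with a position that both other lines express, and 70 were protein coding. By the RefSeq gene order, 52 members (73.2%) had both flanking expressed genes at 5 CPM or more in untreated HH, against 90.4% of those 8850 genes. Another 18 had 1 such flank, and KCNH2, a potassium channel gene, had none. Within 10 genes of another member lay 12 members. No share over other genes was computed for this count or for the 70 protein coding, so neither is read as a trait of the members. Some of the 18, such as YOD1 and PFKFB2, are flanked by a member, which the rule itself makes silent in untreated HH. The lower share is therefore partly set by the rule and is a description. PRTFDC1 and IFIT5 overlap THNSL1 and LIPA, which HH expresses, and the limit on strand given for YOD1 holds for them.

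At the edges of the rule, the members nearest the HH limit were CACHD1, P2RX1, an ATP-gated channel, and AIG1, each at 0.199 CPM at most in untreated HH. The genes just outside were MFSD2A, IQGAP3 and COCH at 0.206 CPM. At the other limit, CST3 (cystatin C), ID1 and the mechanosensitive channel PIEZO2 were just inside, with lowest untreated values of 5.02, 5.04 and 5.09 CPM, and DYRK3, GIMAP6 and PPT2 just outside at 4.92, 4.89 and 4.63 CPM. On the HH limit the 3 genes inside had 4 counts and the 3 outside had 5, in their higher untreated library.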

How the data were processed

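RNA from 24 libraries of HH, PF382 and TLOm1 was measured by strand-specific RNA-seq with a TruSeq Stranded mRNA kit; per the labels the RNA was both polyA RNA and rRNA-depleted total RNA, and this was not resolved. The authors deposited raw counts per gene. Tools named in the submitters' processing notes, without role or version, are limma, STAR and DESeq2, with the build GRCh37.p2. Which counter and annotation were used is not given in the sources used here. RefSeq sequences are on GRCh38.p14, and no coordinate of the files was used.

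CPM was the count over the library total. Counting intervals were exact, at 95% (Poisson for levels, conditional binomial for ratios). Tests used edgeR 4.0.16 (quasi-likelihood, robust, TMM, filterByExpr with a minimum count of 10 and total of 15) in R 4.3.3, with 6 levels and 6 slopes over the 18 treated libraries, at an adjusted p of 0.05. DESeq2 1.42.0 was an alternative. Tables were made in Python 3.11.15 with pandas 2.3.3 and scipy 1.17.1. The fits were tested on simulated data, where the changed genes were picked above a floor of counts and all genes had the same spread. That does not cover calls on genes at a few counts in HH, as most members are.

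The members, gene lists and marker lists were chosen with earlier results of these data known. Genes named were the members at 1 CPM or more in a treated HH library (at most 16), the 8 highest in the other lines among members under 0.2 CPM in all treated HH libraries, up to 8 per drug with the smallest adjusted p of the slope, list members, the 3 genes on each side of each limit, and members not lower in treated HH. Others (ACCS, PFKFB2, GRAMD3, PECAM1, KCNH2, PRTFDC1 and IFIT5, with the genes that overlap them or came back from the lists) were named after their values were seen. Identifiers with LOC (2 members) were passed over. Alternatives were other limits, TMM library sizes, DESeq2, DESeq2's size factors, no filter, dose ranks, HH libraries alone, 1 other line alone and each library left out. Subtracting the TLOm1-only share and leaving 50 nM AZA out of the count over all treated libraries were added after seeing the data.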

Additional observations from a re-analysis of the deposited data

Results flagged for a closer look

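Genes that only TLOm1 expresses had a median level of 1.88% of the untreated TLOm1 level in the HH library at 50 nM AZA, against 0.175% in the untreated HH library of the same set. It was looked at because these 77 genes are not members, and their level here was above that in the control library. Of the 77, 61 were at 1% or more of the TLOm1 level, against 5 in the untreated library. The part of this signal in the members' levels at 50 nM AZA was not tested beyond the counts given with it subtracted and with the library left out.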

How the results depend on the processing

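With a limit of 2 or 10 CPM for the other lines there were 130 or 34 members, and leaving out each untreated library gave 71 to 97. At a limit of 0.5 CPM, the counts of members reaching it were 28, 6 and 14 with 50, 125 and 250 nM AZA and 1, 4 and 5 with 5, 12.5 and 25 nM decitabine. At 2 CPM they were 0, 0 and 4 with AZA and 1 at 25 nM decitabine. Taking off the TLOm1 share left 2 members at 50 nM AZA, and leaving that library out took the count in any treated library from 12 to 7. The AZA slope called 25 members (6 higher, 19 lower). HH libraries alone, where 7 members passed the filter, gave 5, and leaving out 1 HH AZA library gave 7 (without 50 nM), 13 (without 250 nM, 1 of them higher) or 20 (without 125 nM). The decitabine slope called 2 members, 4 with no filter on low counts, and 0 to 2 with 1 HH decitabine library left out. With 1 HH AZA library left out, the AZA slope of ALDH3A2 ran from -2.87 to 0.36 (without 50 nM) and that of YOD1 from -0.19 (without 250 nM) to 2.29; the cause was not tested. Over all alternatives, 24 group counts moved. The other 60 moved less or not at all, among them the number of members at 54 or 106 against 71. Of the single-gene values, 77 kept their direction and call, and 3, all of ONECUT2 against the other lines after AZA, gained a call. Another 10 slopes lost their call. The 2 slopes that changed sign, ALDH3A2 without 50 nM and YOD1 without 250 nM AZA, lost theirs too. Every lost call in this tally came with 1 HH library left out. ALDH3A2, SFMBT2, WDR35 and ARHGEF11 had no AZA slope in HH libraries alone, and the tally does not hold these cases. No paired analysis was possible because the labels carry no replicate numbers and each dose has 1 library.

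The treated libraries are single, doses stand in for replicates in the tests, and levels under about 0.2 CPM are a handful of counts, so return to low expression was not detectable below it.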
